A study of Macaca mulatta with 7 samples.

Results

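Nuclei of spared lumbar spinal cord from a rhesus monkey (Macaca mulatta), taken 6 months post injury (mpi), were compared with nuclei of lumbar cord from an uninjured monkey, class by class. Members were all barcodes of these libraries with at least 1000 unique molecular identifiers (UMIs) and over 500 genes, 5934 at 6 mpi and 11408 in intact lumbar cord, together 17342 of the 67087 that passed in the 7 libraries of the series. Single-nucleus RNA-seq, which counts the RNA of nuclei captured in droplets, had been run once per group. The 6 mpi animal was 6 years old and had a complete thoracic transection with a block of cord removed and no scaffold placed, and the lumbar tissue lay far below the lesion. The intact lumbar, cervical and thoracic segments came from an animal of 5 years that, by the study's account, was a single untreated one, and the cervical and thoracic libraries served only as the range of intact cord. All animals were female. Each side of the comparison is therefore 1 library from 1 animal, so injury, animal, age and library preparation cannot be told apart, no test was possible. The intervals of levels and folds reflect the counting of UMIs and nothing else. Those of shares of nuclei treat the nuclei of 1 animal as independent draws, and neither kind measures the spread between animals.

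The 6 mpi library was the shallowest of the 4 used. It held 45079131 UMIs with a median of 3179.5 per kept nucleus, against 124249162 to 150987900 UMIs and medians of 6158 to 7014 in the intact libraries. The 6 mpi and intact lumbar libraries shared 21 barcodes, 0.342% of the smaller one. After removal of likely doublets 5638 and 10838 nuclei remained, which were clustered with those of the other 5 libraries and named from marker genes, as "-like" because the deposited files give no cell types. The 5 major classes had 2313 microglia-like nuclei at 6 mpi against 2088 in intact lumbar cord, 1927 against 3453 oligodendrocyte-like, 856 against 2807 neuron-like, 229 against 742 oligodendrocyte precursor (OPC)-like and 124 against 972 astrocyte-like nuclei. In each class its own markers outweighed those of every other class, with 3297 counts per 1000000 UMIs of the class (CPM) for the microglia markers in microglia-like nuclei at 6 mpi and 13568 for the oligodendrocyte markers in oligodendrocyte-like nuclei. The segment labels were checked with HOXA9, a gene of the posterior body axis, which stood at 31.3 CPM in neuron-like nuclei at 6 mpi and 28.8 in intact lumbar cord, against 18.2 in thoracic and 0.773 in cervical cord. HOXA9 levels at 6 mpi were also near or above those of intact lumbar cord in OPC-like (48.9 against 35.3 CPM) and astrocyte-like nuclei (37.4 against 37.5). In microglia-like nuclei HOXA9 went the other way, at 2.56 CPM against 20.6 in lumbar, 7.49 in thoracic and 2.68 in cervical cord, 8.06-fold below lumbar cord (4.81 to 14.5), on 16 UMIs at 6 mpi. Mitochondrial transcripts, which are made outside the nucleus, were higher at 6 mpi in every class, for example 618 CPM in microglia-like nuclei against 88.1 to 202 in the intact libraries.

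Microglia are the resident macrophages of the cord. In intact tissue they express receptors such as P2RY12 and CX3CR1, and in degenerating tissue they engulf debris, digest it in lysosomes and store or export the lipid. Oligodendrocytes wrap axons in myelin, a membrane rich in cholesterol that is made through the mevalonate pathway. When a cell holds enough sterol, the transcription factor SREBF2 is kept inactive and the genes of cholesterol synthesis fall, while sterol-activated LXR receptors raise the exporters ABCA1 and ABCG1 and the fatty acid regulator SREBF1.

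UMIs were summed over the nuclei of a class and divided by the class total. A gene was called past the fold when its level, as CPM + 1, differed at least 2-fold between 6 mpi and intact lumbar cord and the 6 mpi level was above or below all 3 intact libraries. In microglia-like nuclei 936 of 8813 counted genes were higher past the fold (10.6%) and 371 lower (4.21%). Oligodendrocyte-like nuclei had 322 of 8010 higher (4.02%) and 135 lower (1.69%). Neuron-like nuclei had fewer, 125 of 9347 higher (1.34%) and 40 lower (0.428%). The smaller classes had 289 of 6305 higher (4.58%) and 71 lower (1.13%) in OPC-like nuclei, and 373 of 5967 higher (6.25%) and 129 lower (2.16%) in astrocyte-like nuclei.

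The intact segments gave a scale for these shares. Leaving out the condition on the intact range, 15.7% of counted genes in microglia-like nuclei differed 2-fold in either direction between 6 mpi and intact lumbar cord, against 2.81% between intact cervical and lumbar cord and 2.44% between thoracic and lumbar cord. The same shares were 5.71%, 0.0517% and 0.208% in oligodendrocyte-like nuclei and 1.79%, 0.174% and 0.36% in neuron-like nuclei. They were 6.26%, 1.67% and 0.747% in OPC-like nuclei. In astrocyte-like nuclei the intact thoracic library differed from the lumbar one in nearly as many genes as the 6 mpi library did, 8.51% against 10.6%, while the cervical library differed in 1.08%. The minimum level in CPM stands for fewer UMIs at 6 mpi, so counting error is larger there than between intact libraries. Class totals were 961686 UMIs at 6 mpi against 4820690 in intact lumbar cord in OPC-like nuclei, and 722379 against 7806051 in astrocyte-like ones. Depth and animal also differ between the libraries, and their part in these counts was not tested.

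**Figure D1:**
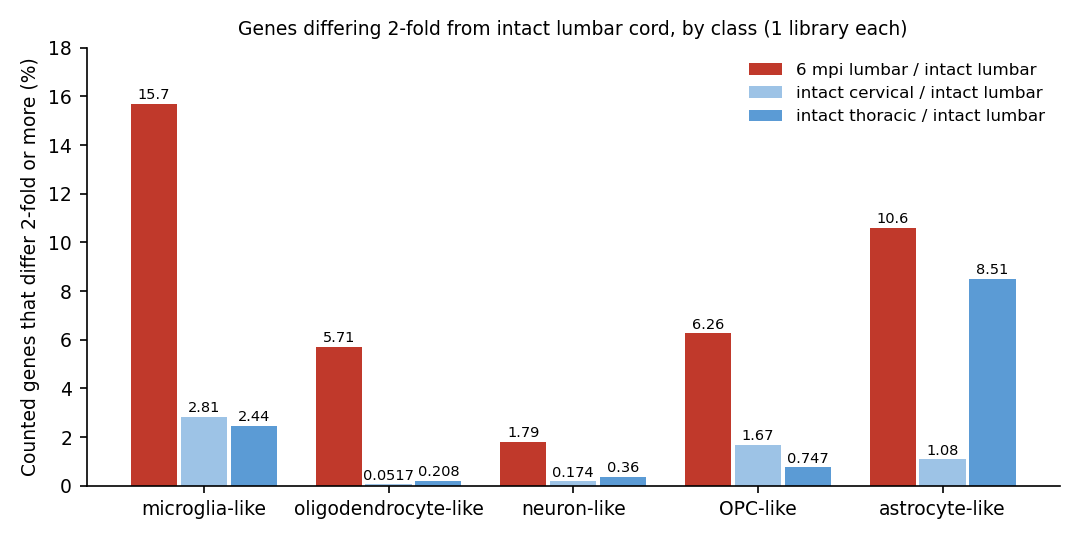
Share of counted genes (percent, from 0) that differed at least 2-fold from intact lumbar cord in each class, for the 6 mpi, intact cervical and intact thoracic libraries, 1 library each. The 6 mpi bar is the highest in all 5 classes, from 1.79% in neuron-like to 15.7% in microglia-like nuclei, and in astrocyte-like nuclei the thoracic bar reaches 8.51%.

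The balance of higher and lower genes depended on the scaling. Most counted genes lay slightly above 0, with medians of 0.18 on the log2 scale in microglia-like, 0.10 in oligodendrocyte-like, 0.04 in neuron-like, 0.09 in OPC-like and 0.10 in astrocyte-like nuclei. Scaling by the median ratio of genes instead of the class total moved every log2 ratio by -0.22 in microglia-like, -0.18 in oligodendrocyte-like, -0.09 in neuron-like, -0.19 in OPC-like and -0.22 in astrocyte-like nuclei. The share of higher genes among those past the fold then went from 71.6% to 55.2% in microglia-like (646 higher, 525 lower), from 70.5% to 46.5% in oligodendrocyte-like (172 and 198) and from 75.8% to 62.6% in neuron-like nuclei (87 and 52). It went from 80.3% to 55.1% in OPC-like (166 and 135) and from 74.3% to 42.6% in astrocyte-like nuclei (179 and 241). Folds below are on the class totals, and list medians are best read against the class medians given here.

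Microglia-like nuclei at 6 mpi showed high levels of genes that were close to absent from intact cord. CHIT1 (ENSMMUG00000008709, Mmul_10 chromosome 1, 60716866 to 60729929), a chitinase of activated macrophages, stood at 626 CPM at 6 mpi (95% Poisson interval 607 to 646) against 1.09 in intact lumbar, 0.536 in cervical and 4.05 in thoracic cord, a 577-fold difference from lumbar cord (292 to 1337). The 6 mpi level was far above all 3 intact libraries. In nuclei thinned to 1000 UMIs, 29.5% of microglia-like nuclei at 6 mpi held a CHIT1 UMI (27.6 to 31.4) against 0.0958% in intact lumbar cord, and 2.34% of oligodendrocyte-like and 1.17% of neuron-like nuclei, which should lack the gene, held one at 6 mpi. Those shares are read here as background. Within the class CHIT1 was uneven, at 993 CPM in the GPNMB-CHIT1 cluster of 6 mpi described below and 34.2 in the SLC11A1-CD74 cluster. It was at 1270 CPM in a small cluster led by ITGAX and GPNMB, with 58 nuclei of 6 mpi.

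Several other genes had the same shape. CDH1, the epithelial adhesion molecule E-cadherin, was at 256 CPM against 1.09, 0.804 and 4.31 in intact lumbar, cervical and thoracic cord, 236-fold above lumbar cord (120 to 548). ROR1, a Wnt-binding receptor of the tyrosine kinase family, was at 174 CPM against 1.49, 1.88 and 2.15, or 117-fold (65.1 to 235). Neither gene overlapped between the 6 mpi and the intact libraries, and ROR1 was also abundant in astrocyte-like nuclei of both lumbar libraries, at 266 and 245 CPM. DNASE2B, an acid nuclease, was at 95.3 CPM and had no UMI in intact lumbar cord, which makes it at least 234-fold higher when 3 UMIs per library are taken as the floor. FBXO40, a substrate receptor of a ubiquitin ligase, was at 158 CPM against 0.134 to 1.29 in the intact libraries, and FCRL5, an immunoglobulin-binding receptor, at 80.9 against 0.258 to 0.536. TMEM266 was at 239 CPM against 2.17 to 3.01. The GPNMB gene, a lysosomal membrane glycoprotein, belongs to the same group with 1491 CPM against 1.88 to 18.9. Levels of these genes were also uneven within the class at 6 mpi. CDH1 was at 426 CPM in the GPNMB-CHIT1 cluster and 4.02 in the SLC11A1-CD74 cluster, and FBXO40 at 269 and 2.01. ROR1 (295 and 2.51) and DNASE2B (161 and 1.51) had the same order. So did TMEM266 (376 and 23.6) and FCRL5 (131 and 13.6), with 1.76 and 0.160 CPM in the intact MRC1-FKBP5 cluster. The ITGAX-GPNMB cluster of 6 mpi had 303 CPM of TMEM266 and 289 of CDH1, but 4.81 of FCRL5.

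The lower genes included receptors of resting microglia and macrophages. CALCR (ENSMMUG00000014319, chromosome 3, 112531195 to 112681747), the calcitonin receptor, had 318 CPM in intact lumbar, 272 in cervical and 267 in thoracic cord, and not a single UMI in 2313 microglia-like nuclei at 6 mpi. With the floor of 3 UMIs this is at least 664-fold lower. In nuclei thinned to 1000 UMIs 22.0% of microglia-like nuclei of intact lumbar cord held a CALCR UMI (20.2 to 23.8), and 0 of 2313 held one at 6 mpi, which allows up to 0.159% of nuclei with a UMI at that depth and sets no limit on nuclei that express the gene. The intact shares in oligodendrocyte-like and neuron-like nuclei were 0.0579% and 0.321%.

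KIAA1549, with 116 CPM in intact lumbar, 86.9 in cervical and 76.6 in thoracic cord, stood at 2.24 at 6 mpi, 51.7-fold lower. IL7R, the interleukin-7 receptor, was at 4.64 CPM against 67.4, 56.6 and 65.7, 14.5-fold lower (10.0 to 21.9). The scavenger receptor for hemoglobin CD163 was at 73.1 CPM against 809, 497 and 409, 11.1-fold lower (10.1 to 12.2). All of these lay far below the lowest intact library. The adaptor TAMALIN and TMEM236 made up the 8 with MRC1 and the adhesion gene CDH13, which stood at 13.1 CPM against 1511.

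**Figure D2:**
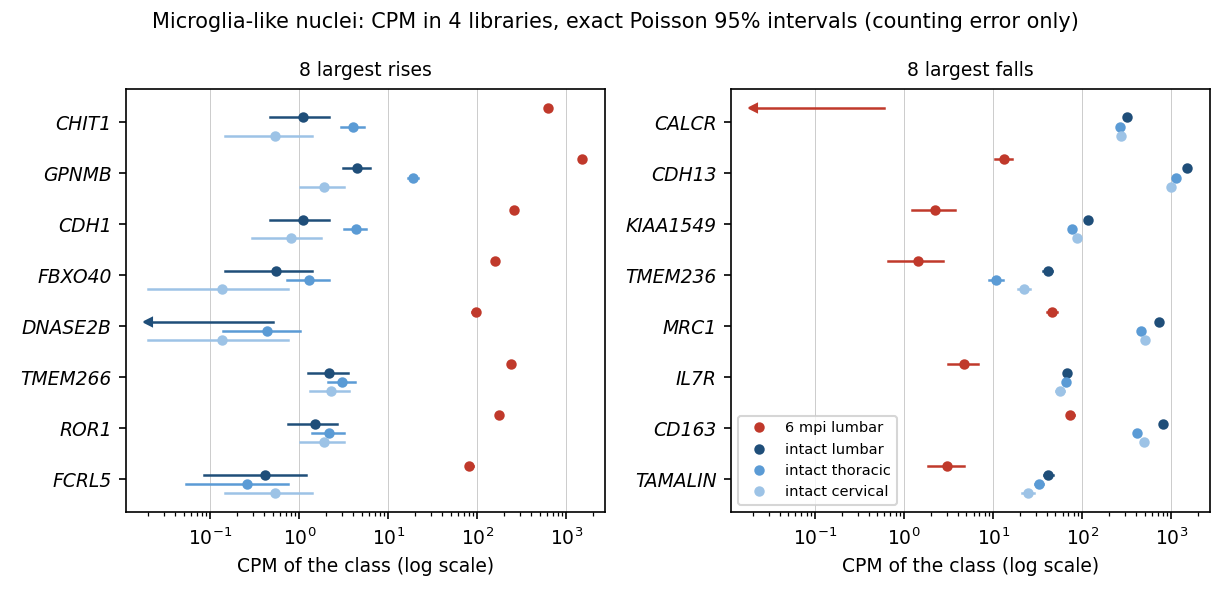
CPM (log scale) of the 8 top-ranked higher genes and the 8 top-ranked lower genes in microglia-like nuclei, in 6 mpi lumbar, intact lumbar, intact thoracic and intact cervical cord, with exact Poisson 95% intervals; an arrow marks a library with 0 UMIs. The 6 mpi points stand apart from all 3 intact libraries for each of the 16 genes.

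Genes known from phagocytic and disease-associated microglia, with lysosomal and lipid handling genes, formed a list of 33 counted genes, of which 17 were higher past the fold and 1, the lipoprotein lipase gene LPL, was lower. The list's median was 1.01 on the log2 scale against 0.18 for all counted genes. The scale for this and the other list counts in microglia-like nuclei is the 10.6% of all counted genes that were higher and 4.21% that were lower. Like the other lists, it was chosen with earlier results of these data known, and it holds CHIT1 and GPNMB, named above. Its count and median are therefore a description. Lipid carriers and exporters were among the higher ones. FABP5, a fatty acid binding protein, was at 171 CPM against 2.85 in intact lumbar, 3.89 in cervical and 5.17 in thoracic cord, a 59.9-fold difference (39.0 to 97.2). ABCA1, which exports cholesterol to apolipoproteins, was at 276 CPM against 19.1, 13.9 and 19.4, 14.4-fold higher (12.1 to 17.2), and its partner ABCG1 at 46.0 CPM against 2.04, 2.14 and 1.72, 22.6-fold higher (13.5 to 40.9). For all of these the intact libraries lay close together and the 6 mpi library well above them.

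PLIN2, which coats lipid droplets, was at 44.9 CPM against 7.51 to 8.78. The lysosomal genes GRN (229 against 46.2 to 50.7), CD63 (86.0 against 10.7 to 14.4) and CD68 (20.3 against 3.10 to 4.96) were also higher. So was the galectin LGALS3, which marks damaged lysosomes, with 261 CPM against 2.55 to 9.13. MITF, a transcription factor of the family that drives lysosomal genes, was at 873 CPM against 110.3 to 166, 7.91-fold above lumbar cord (7.35 to 8.53), while its relatives TFEB and TFEC, at 116 and 156 CPM against 95.7 and 161 in intact lumbar cord, did not pass the fold. Not every member differed. TREM2 (32.8 CPM against 17.6), LIPA (114 against 57.0), NPC1 (145 against 98.0), LAMP1 (43.8 against 39.6) and CTSS (209 against 202) did not pass the fold.

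Factors of the MITF family bind the E-box, whose core CACGTG reads the same on both strands, so the 250 bases before the RefSeq start of the list genes were searched for it in Mmul_10. It was present for 4 of the 15 higher genes with a window (26.7%), for 1 of the 16 other counted list genes (6.25%) and for 1339 of 20756 protein-coding genes (6.45%). The upstream windows of CD63 (chr11:55289030-55289279, minus strand) and ABCA1 (chr15:37954646-37954895, plus strand) are shown because both hold the motif, here in capitals, 160 and 61 bases before the gene start.
CD63: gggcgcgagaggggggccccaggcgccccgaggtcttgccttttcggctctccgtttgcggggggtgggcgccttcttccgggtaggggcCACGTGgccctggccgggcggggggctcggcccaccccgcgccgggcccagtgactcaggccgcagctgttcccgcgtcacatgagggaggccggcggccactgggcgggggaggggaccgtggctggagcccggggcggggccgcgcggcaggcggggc
ABCA1: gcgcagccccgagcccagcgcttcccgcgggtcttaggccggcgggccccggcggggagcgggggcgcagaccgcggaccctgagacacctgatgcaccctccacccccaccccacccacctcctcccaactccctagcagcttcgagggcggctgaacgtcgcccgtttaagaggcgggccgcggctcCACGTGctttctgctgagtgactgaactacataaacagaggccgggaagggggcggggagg
A match of these letters is a description of the window and shows no binding.

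Of 12 counted genes of homeostatic microglia, 5 were lower past the fold and 1 was higher, and the list's median was -0.81. CSF1R, the receptor on which microglial survival depends, was at 341 CPM against 702 in intact lumbar, 629 in cervical and 633 in thoracic cord, 2.06-fold lower (1.96 to 2.17), with a log2 ratio of -0.29 without the GPNMB-CHIT1 cluster described below. The adhesion ligand SELPLG was at 163 CPM against 309 to 365. By cluster it was at 129 CPM in the GPNMB-CHIT1 and 231 in the SLC11A1-CD74 cluster, against 395 and 188 in the intact ones. In contrast SALL1, a transcription factor of microglial identity, was at 136 CPM against 99.6 to 120, and TGFBR1 at 897 against 820 to 884, neither past the fold. Of the 12 counted scavenger and phagocytic receptors, MSR1 (414 CPM against 96.4 to 121) and the integrin chain ITGB2 (103 against 34.6 to 41.3) were higher and CD163, MRC1 and STAB1 lower, with a median of -0.22, while MERTK and AXL did not pass.

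Perivascular macrophage genes gave a mixed picture. Of 5 counted, 3 were lower, again MRC1, CD163 and STAB1, and the scavenger receptor COLEC12 was higher at 67.8 CPM against 0.536 to 6.46, with a median of -1.81. CD163 and MRC1 are known from these macrophages, but in intact lumbar cord both were found in the 2 main clusters of the class, MRC1 at 747 and 690 CPM and CD163 at 675 and 1651 CPM in the clusters that held 84.9% and 13.9% of its nuclei. Complement genes had 3 of 10 higher and none lower, with a median of -0.09. The higher ones were CFB (34.8 CPM against 9.23 to 9.47), the complement receptor chain ITGAX (904 against 64.7 to 94.6) and CR1, whose log2 ratio of 2.47 turned to -0.70 without the GPNMB-CHIT1 cluster described below and to -0.79 when doublets were kept, where the class no longer held that cluster. The C1q chains C1QA (74.3 CPM against 137 in lumbar cord), C1QB and C1QC did not pass.

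Inflammatory genes moved in both directions. Of 17 counted chemokines and cytokines, 5 were higher and 4 lower, with a median of -0.03. CSF1, a growth factor for microglia, was at 18.9 CPM against 1.47 to 2.44, and TGFB2 at 56.9 against 15.2 to 30.1. The trophic factor IGF1 was at 17.1 CPM against 74.1 in intact lumbar, 63.8 in cervical and 72.5 in thoracic cord, 4.33-fold lower (3.51 to 5.38), and IL18 at 150 against 344 to 418. CCL4L1 (246 CPM against 56.3 to 73.9) was higher, but chemokine genes of its family have near-identical copies, so its counts are uncertain. NF-kB genes had 4 of 11 higher and none lower (NFKB2, TNFAIP3, SOD2 and ICAM1), with a median of 0.66. SOD2 was at 90.3 CPM in the GPNMB-CHIT1 cluster described below but at 15.6 in the SLC11A1-CD74 cluster, against 18.6 and 9.63 in the intact ones.

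Interferon response genes were higher in 7 of 14 counted and lower in none, with a median of 0.90. IFI44 was at 134 CPM against 23.6 in intact lumbar, 32.6 in cervical and 26.6 in thoracic cord, 5.67-fold higher (4.81 to 6.71). XAF1 (54.8 CPM against at most 15.8), MX1 (114 against 37.7 to 44.0), OAS2, IFI6, IRF9 and USP18 were the others. Of 7 counted antigen presentation genes 1 passed the fold, the class I activator NLRC5, and the median was -0.08. With 10.6% of all counted genes in the class higher, 1 of 7 is near the background.

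Immediate early genes, which respond within minutes to signals and also to tissue handling, were higher in 9 of 14 counted and lower in none, with a median of 1.70. JUN was at 363 CPM against 36.4 in intact lumbar, 66.1 in cervical and 53.7 in thoracic cord, 9.98-fold higher (8.79 to 11.4). Levels at 6 mpi differed between clusters described below, with JUN at 559 CPM in the GPNMB-CHIT1 cluster and 49.3 in the SLC11A1-CD74 cluster, against 12.97 and 165 in the intact ones. Without the first, the log2 ratio of JUN was 1.41 in place of 3.28, and EGR1 (0.54), ATF3 (0.75), FOSB (0.16), KLF6 (0.58) and DUSP1 (0.79) were short of the fold. FOS, at 508 CPM against 46.1 to 155, had a wide intact range, and NR4A1, NR4A2 and NR4A3 lay inside theirs. Of 16 heat shock and unfolded protein genes, DDIT3 was higher and DDIT4 lower (36.0 CPM against 105 to 201). The effect of perfusion and dissection on these genes was not tested.

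Genes induced by glucocorticoids split. SGK1 was at 546 CPM against 31.2 in intact lumbar, 99.3 in cervical and 83.5 in thoracic cord, 17.5-fold above lumbar cord (15.3 to 20.1). Without the GPNMB-CHIT1 cluster its log2 ratio was 2.48 in place of 4.09, and in the SLC11A1-CD74 cluster it was at 54.8 CPM. PDK4 was also higher, as was TSC22D3, whose log2 ratio of 2.07 turned to -0.28 without the GPNMB-CHIT1 cluster and to -0.25 when doublets were kept and that cluster was likewise outside the class. FKBP5 was at 1051 CPM against 4081, 3438 and 2740, 3.88-fold lower (3.78 to 3.99), and KLF9 was lower too. The other 4 counted of the 9 did not pass, and the list's median was 0.29. In astrocyte-like nuclei FKBP5 (343 CPM against 637 to 813), ZBTB16 (190 against 345 to 383) and KLF9 (48.5 against 72.1 to 118) were lower and the metallothionein MT2A higher among 8 counted, with a median of -0.10, and in OPC-like nuclei ZBTB16 and KLF9 were lower among 7, with a median of -0.46.

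Further lists in microglia-like nuclei ranged from no gene past the fold to most of those counted. Since 10.6% of all counted genes in the class were higher and 4.21% lower, counts of 0 or 1 in these lists are not above the background. Autophagy genes had 1 of 28 higher, the cargo receptor SQSTM1, and none lower, with a median of 0.20. SQSTM1 was at 109 CPM in the GPNMB-CHIT1 cluster and 25.6 in the SLC11A1-CD74 cluster, against 22.4 and 36.6 in the intact ones. Among 29 RNA splicing genes and 16 nuclear genes of the respiratory chain none passed, with medians of 0.12 and 0.23. Amino acid and nutrient response genes had 3 of 11 higher and 2 lower, with a median of 0.44. Of 18 cell cycle genes only 3 reached the minimum level, and POLQ and EZH2 were higher, with a median of 1.01. POLQ was at 43.4 CPM in the GPNMB-CHIT1 cluster described below and 4.02 in the SLC11A1-CD74 cluster, against 5.12 and 7.70 in the intact ones. EZH2 was at 15.8 and 19.1 against 9.12 and 9.63. A cluster led by TOP2A and DIAPH3 held 2 nuclei of the class at 6 mpi. Of 4 counted genes known from reactive astrocytes, whose median of 2.55 rests on these few, CD44 (242 CPM against 24.0 to 40.9), VIM (79.5 against at most 10.5) and GFAP (184 against 49.5 to 98.4) were higher. CD44 and VIM stood above their oligodendrocyte-, neuron- and OPC-like levels at 6 mpi, which were at most 5.64 and 5.20 CPM, while astrocyte-like nuclei had 298 CPM of CD44 and 8.31 of VIM. GFAP was higher in every glial class, and the 8 astrocyte markers summed to 990 CPM in microglia-like nuclei at 6 mpi and 1059 in intact lumbar cord, with GFAP the one that was higher.

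Genes of cholesterol synthesis and uptake were lower in microglia-like nuclei. Of 18 counted, 13 were lower past the fold and none higher, with a median of -1.61. SQLE, the squalene epoxidase, was at 17.6 CPM against 85.5 in intact lumbar, 82.7 in cervical and 79.0 in thoracic cord, 4.86-fold lower (3.96 to 6.01). IDI1, an isomerase of the isoprenoid steps, was at 10.4 CPM against 44.6, 46.1 and 46.5, 4.30-fold lower (3.28 to 5.70). The 3 intact libraries lay close together for these genes, and the 6 mpi library lay below all of them. The regulators SREBF2 (92.7 CPM against 255 to 280) and INSIG1 (17.9 against 51.7 to 77.2) were lower as well. LSS, the lanosterol synthase, went the other way without passing the fold (26.5 CPM against 14.4 to 19.2).

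Oligodendrocyte-like nuclei showed a similar list, 11 of 18 counted genes lower and 1 higher, with a median of -1.38 against 0.10 for all counted genes. HMGCS1, which forms the precursor of mevalonate, was at 29.7 CPM against 172 in intact lumbar, 248 in cervical and 244.5 in thoracic cord, 5.78-fold lower (5.10 to 6.58). This value moved with the clusters that made up the class. A cluster led by RAI14 and CNMD, with HMGCS1 among its leading genes, held 677 nuclei of intact lumbar cord (19.6%) at 318 CPM of HMGCS1 and 34 nuclei of 6 mpi (1.76%) at 80.1 CPM. In the main intact cluster, led by OPALIN and OLAH, HMGCS1 was at 39.2 CPM at 6 mpi and 43.6 in intact lumbar cord, and in one led by KCNMB4 and ANLN at 35.0 and 147 CPM. IDI1 was at 17.3 CPM against 87.5, 115 and 117, 5.06-fold lower (4.29 to 6.02), and it was lower at 6 mpi within the OPALIN-OLAH (14.7 and 37.8 CPM) and KCNMB4-ANLN clusters (19.8 and 68.5). The higher gene was SREBF1, at 58.6 CPM against 19.1, 16.3 and 15.2, 3.07-fold (2.70 to 3.48). It was higher at 6 mpi within the OPALIN-OLAH (79.6 and 28.2 CPM) and KCNMB4-ANLN clusters (54.8 and 19.9). In a cluster led by CNDP1 and QDPR, with 1059 nuclei of 6 mpi and 45 of intact lumbar cord, SREBF1 was at 85.3 and 94.3 CPM. SQLE, INSIG1 and SREBF2 were below the intact range without passing the fold.

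Fewer genes of the list were counted in the other classes. In neuron-like nuclei none of 17 counted genes of the list passed the fold, with a median of -0.23. In OPC-like nuclei none of 10 passed, with a median of 0.34, and in astrocyte-like nuclei SREBF1 was higher and IDI1 lower among 4. The OPC- and astrocyte-like sums are small and count only the more abundant members, and whether the classes differ was not tested. The motif TCACNCCAC, a form of the sterol response element chosen after the data were seen, was searched on both strands of the same windows. It was found for 1 of the 13 lower genes (7.69%), HMGCS1, for 0 of 4 other counted genes with a window, and for 303 of 20756 protein-coding genes (1.46%). The window of HMGCS1 (chr6:43321488-43321737, minus strand) is shown with the motif in capitals, 180 bases before the gene start.
HMGCS1: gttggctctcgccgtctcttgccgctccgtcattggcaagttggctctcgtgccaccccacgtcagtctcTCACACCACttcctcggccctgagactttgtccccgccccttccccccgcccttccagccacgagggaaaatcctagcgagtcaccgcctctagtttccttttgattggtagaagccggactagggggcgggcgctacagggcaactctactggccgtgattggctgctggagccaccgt
No match in a window says only that these letters are not in it.

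**Figure D3:**
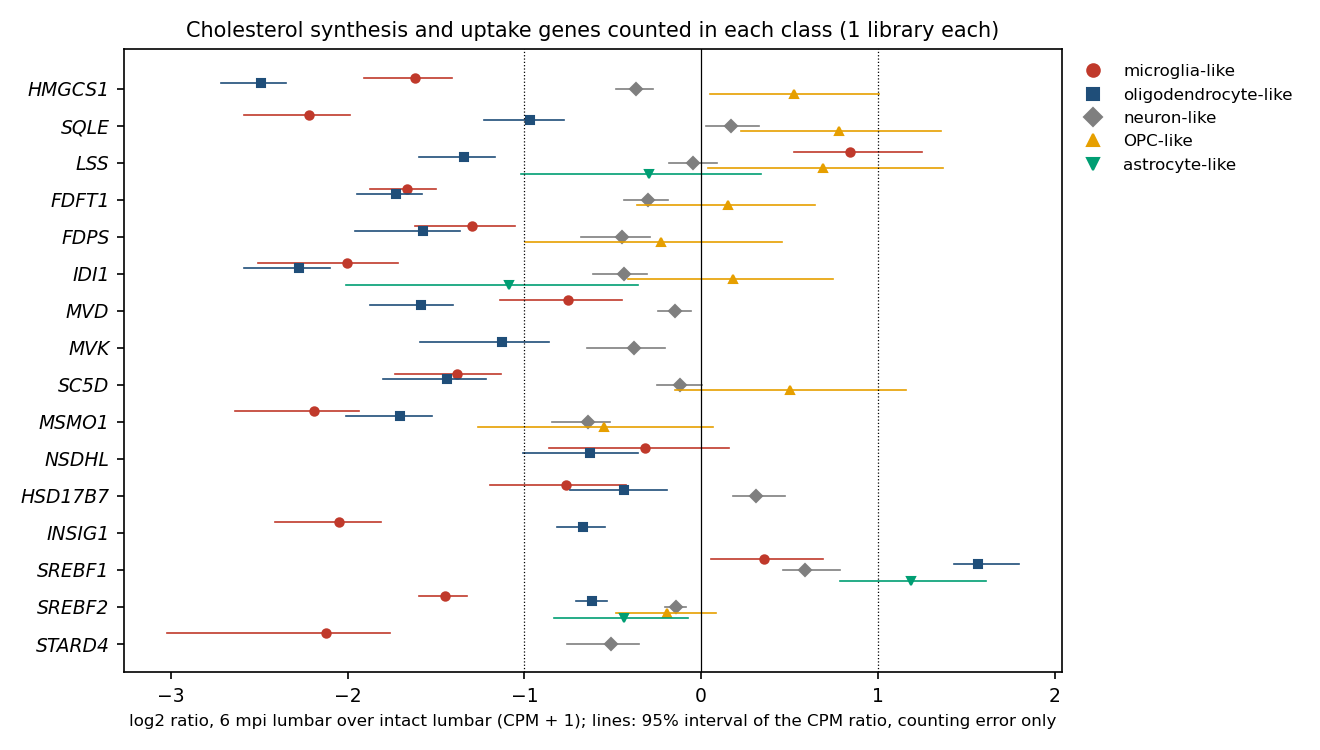
Log2 ratio (CPM + 1) of 6 mpi over intact lumbar cord for cholesterol synthesis and uptake genes counted in a class, 1 library per side, with the 95% interval of the CPM ratio (counting error only) and dotted lines at 2-fold. Microglia-like and oligodendrocyte-like points lie mostly left of the lower line, neuron-like points lie between the lines, and SREBF1 is right of the upper line in oligodendrocyte-like and astrocyte-like nuclei.

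The microglia-like class was made of different clusters in the 2 libraries. Nuclei were clustered without correction for library, so a cluster can follow a library as well as a cell state. In intact lumbar cord 84.9% of its nuclei (1772) were in a cluster led by MRC1 and FKBP5 and 13.9% (290) in one led by NR4A3 and NR4A2. At 6 mpi 55.2% (1277) were in a cluster led by GPNMB and CHIT1 and 35.5% (820) in one led by SLC11A1 and CD74, and only 25 nuclei were in the MRC1 cluster. The clusters were built from the same UMIs, so levels in them are a description. These 6 mpi clusters held 5 and 12 nuclei of intact lumbar cord. The GPNMB-CHIT1 cluster came almost wholly from the 6 mpi library (1277 of its 1337 nuclei in all 7 libraries), so there the cluster and the library cannot be told apart. In the SLC11A1-CD74 cluster 2921 of the 3938 nuclei came from the lumbar library of 7 days post injury. The cluster led by ITGAX and GPNMB also had CHIT1 among its leading genes. It held 58 nuclei of 6 mpi, 1246 of 30 days and 383 of 14 days post injury.

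Within the 6 mpi library levels differed between these clusters. Of the 17 lysosomal and lipid handling genes that were higher in the class, 17 were at a higher level in the GPNMB-CHIT1 cluster than in the SLC11A1-CD74 cluster. As the first cluster held 55.2% of the class at 6 mpi, genes picked as higher in the class are apt to be high in it. That count, and the one for interferon genes below, are therefore descriptions of genes already picked. LPL, the lower gene of that list, varied within both libraries, from 57.5 CPM in the GPNMB-CHIT1 cluster to 553 in the ITGAX-GPNMB cluster at 6 mpi and from 121 in the MRC1-FKBP5 to 731 in the NR4A3-NR4A2 cluster of intact cord. ABCA1 stood at 417 CPM in the GPNMB-CHIT1 cluster, 50.3 in the SLC11A1-CD74 cluster and 17.9 in the intact MRC1-FKBP5 cluster, and CTSD, the lysosomal protease cathepsin D, at 641 CPM in the first and 52.8 in the second. Both genes were highest in the GPNMB-CHIT1 cluster. Of the 7 higher interferon genes 6 were at the higher level in the SLC11A1-CD74 cluster, IFI44 with 212 CPM against 92.8 and XAF1 with hardly any difference (56.3 against 56.1). USP18 had the other order (15.1 and 18.6 CPM) and was highest, at 67.4 CPM, in the cluster led by ITGAX and GPNMB. Of the homeostatic genes, CSF1R was at 170 CPM in the GPNMB-CHIT1 cluster but at 624 in the SLC11A1-CD74 cluster, against 723 in the intact MRC1-FKBP5 cluster, and P2RY12 at 334, 1018 and 1297 CPM. CSF1R and P2RY12 were thus close to intact levels in the SLC11A1-CD74 cluster and low in the GPNMB-CHIT1 cluster. CX3CR1 was at 35.0 CPM in the GPNMB-CHIT1 and 293 in the SLC11A1-CD74 cluster, and SELPLG at 129 and 231. Both were below their levels in the intact MRC1-FKBP5 cluster (469 and 395 CPM), while the intact NR4A3-NR4A2 cluster had 210 and 188. CALCR had no UMI in any of the 5 clusters of the 6 mpi library shown, against 312 and 374 CPM in the 2 intact ones, and CDH13 was between 4.79 and 23.1 CPM against 1368 and 1549. HMGCS1 was at 18.6 CPM in the GPNMB-CHIT1 cluster and 37.7 in the SLC11A1-CD74 cluster against 62.7 and 225 in the intact clusters.

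Leaving out the GPNMB-CHIT1 cluster, a choice made after the data were seen, gave 637 higher and 214 lower genes in the class, but no more than 438 of the 936 higher and 176 of the 371 lower genes were among them. HMGCS1 then had a log2 ratio of -1.13 in place of -1.62, while SREBF2 no longer passed the fold (-0.82 in place of -1.45).

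Which clusters counted as microglia-like also depended on the naming rule. No microglia marker was among the 10 leading genes of either large cluster of 6 mpi, and 6 of the microglia markers were detected in the GPNMB-CHIT1 cluster. When doublets were kept, a cluster led by GPNMB and CHIT1 with 1364 nuclei of 6 mpi scored 0.25 for microglia and 0.24 for oligodendrocyte markers (mean level relative to the highest cluster, from 0 to 1) and stayed unnamed as a mixture, against 0.33 for microglia and 0.14 for the next class, astrocytes, in the cluster used here. The class then had 1137 nuclei at 6 mpi in place of 2313, with 658 higher and 215 lower genes, of which 458 and 183 were among those given above. VWF, listed as an endothelial marker, was among the leading genes of the SLC11A1-CD74 cluster, and it was set aside by a rule chosen after the clusters were seen. With every listed marker counted that cluster's 820 nuclei dropped out, 1493 nuclei remained, and 1117 genes were higher and 547 lower, 888 and 351 of them among those given above.

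**Figure D4:**
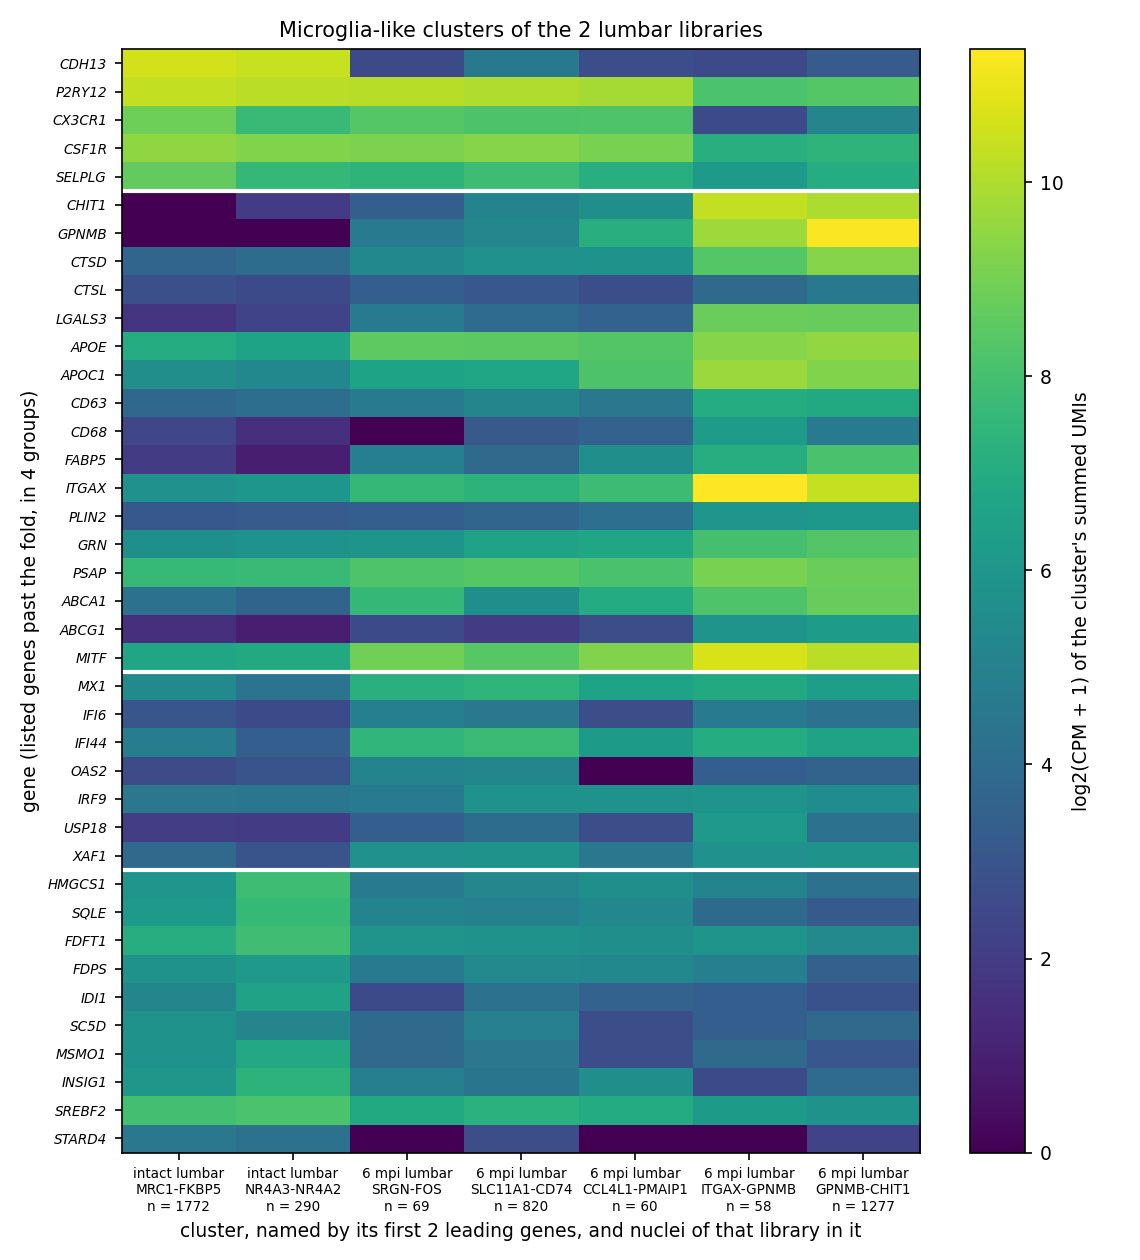
Levels (log2(CPM + 1) of the summed UMIs, color scale) of listed genes past the fold in the microglia-like clusters of intact lumbar and 6 mpi lumbar cord, in 4 groups from top to bottom: lower homeostatic, higher lysosomal and lipid handling, higher interferon, and lower cholesterol genes. CDH13 is bright in the 2 intact clusters and dark in the 5 clusters of 6 mpi, and the plotted lysosomal and lipid handling genes are brightest in 1 of the 2 clusters at the right, those led by ITGAX and GPNMB (58 nuclei) and by GPNMB and CHIT1 (1277).

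In oligodendrocyte-like nuclei none of 17 counted core myelin genes passed the fold, with a median of 0.10, equal to that of all counted genes. With 4.02% of all counted genes higher and 1.69% lower, a count of 0 in a list of this size is near the background. MBP stood at 7214 CPM against 7751 to 8468 in intact cord and MOBP at 828 against 790 to 1004. Of 13 fatty acid and sphingolipid genes, SCD (33.3 CPM against 70.1 to 85.6) and FADS1 (41.6 against 75.7 to 88.9), both fatty acid desaturases, were lower, with a median of -0.32. Of 9 transcription factors of the lineage 1 was higher, SOX8 at 84.6 CPM against 30.1 to 35.4, with a median of -0.03, and of 11 contact genes of the node and paranode 1, CNTN1, was higher at 130.2 CPM against 63.6 to 94.2, with a median of 0.08.

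Single genes of this class differed more. ANO4 (ENSMMUG00000018718, chromosome 11, 100533176 to 100944861), a membrane protein of the anoctamin family, was at 181 CPM against 6.73 in intact lumbar, 9.78 in cervical and 9.04 in thoracic cord, 26.9-fold higher (22.9 to 31.7). After thinning, 17.7% of oligodendrocyte-like nuclei held an ANO4 UMI at 6 mpi (16.1 to 19.5) against 0.782% in intact lumbar cord, while the neuron-like shares were 39.3% and 38.3% and the microglia-like ones 1.30% and 1.05%. ANO4 levels in neuron-like (575 CPM against 579) and OPC-like nuclei (288 against 308) were close to those of intact lumbar cord. TGFBR3, a co-receptor for TGF-beta, was at 25.8 CPM against 0.98 to 1.23, and FGF1, a fibroblast growth factor, at 55.9 against 3.50 to 4.81. EYA4, a transcriptional co-activator, was at 21.9 CPM against 1.32 to 1.48. LCAT, which esterifies cholesterol on lipoproteins, was at 35.1 CPM against 2.16 to 3.89, and it was also higher in microglia-, OPC- and astrocyte-like nuclei (35.5, 53.0 and 74.8 CPM at 6 mpi) while its neuron-like level of 1.41 CPM was too low to be counted.

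The first-ranked lower gene was GPR176 (ENSMMUG00000006039, chromosome 7, 16212159 to 16332273), an orphan G protein-coupled receptor. It was at 3.34 CPM at 6 mpi against 211 in intact lumbar, 215 in cervical and 239 in thoracic cord, 63.3-fold lower (44.0 to 94.6). Its levels in neuron-like (70.1 CPM against 98.0 in lumbar cord) and OPC-like nuclei (91.5 against 124) did not pass the fold. SMOC2, a secreted calcium-binding matrix protein, was at 16.0 CPM against 130.1, 149 and 152, 8.13-fold lower (6.86 to 9.70). The peptidase gene NAALAD2 was at 18.5 CPM against 122 to 153. MGLL, which degrades an endocannabinoid, and PNPLA3, a lipid droplet protein, were at 3.22 and 2.76 CPM against 26.8 and 24.6 in intact lumbar cord.

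**Figure D5:**
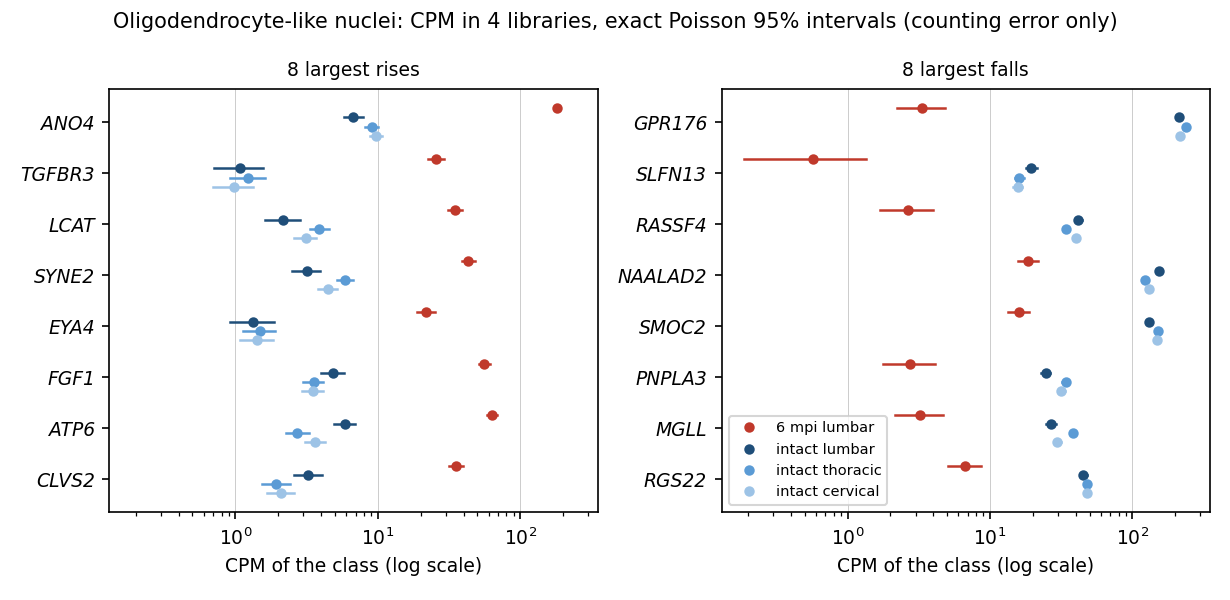
CPM (log scale) of the 8 top-ranked higher and 8 top-ranked lower genes in oligodendrocyte-like nuclei, in the 6 mpi lumbar, intact lumbar, intact thoracic and intact cervical libraries, with exact Poisson 95% intervals. For each of the 16 genes the 3 intact libraries lie close together and the 6 mpi point stands apart.

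Genes of disease-associated oligodendrocytes were higher in 3 of 9 counted, NRXN3, APOD and CD63, with a median of 0.51. APOD, a lipocalin that carries lipids, was at 34.1 CPM against 0.922 in intact lumbar, 1.23 in cervical and 1.16 in thoracic cord, 37.0-fold higher (24.2 to 59.2), which is below the OPC-like level of 188 CPM at 6 mpi. NRXN3 was at 81.8 CPM against 25.4 to 33.0. Among the 2 counted antigen presentation genes both were higher, B2M at 20.2 CPM against 5.80 to 7.38 and MAMU-DRB1 at 18.3 against 5.85 to 8.36. MAMU-DRB1 belongs to a family of similar genes and its counts are uncertain. Microglia markers were also higher in this class, all 10 of 10, with a sum of 35.4 CPM against 9.10 to 16.2 in the intact libraries, and their part in these values was not tested.

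In the other lists of this class the counts were small. Since 4.02% of all counted genes in the class were higher and 1.69% lower, such counts in lists of this size are near the background. RNA splicing genes had 2 of 29 higher (HNRNPA1 and HNRNPH1), with a median of 0.46, and nuclear respiratory chain genes none of 15, with a median of 0.42. The median of all counted genes in the class was 0.10. Heat shock genes had 1 of 14 (ATF4, also the 1 of 11 among nutrient response genes), with medians of 0.25 and 0.10, autophagy genes 0 of 26 (0.18) and interferon genes 1 of 5, IRF9 (0.42). Glucocorticoid genes had PDK4 higher and ZBTB16 lower among 9 (-0.22). As in microglia-like nuclei the clusters differed, with 1059 nuclei of 6 mpi in a cluster led by CNDP1 and QDPR that held 45 of intact lumbar cord. The 1673 nuclei of the main intact cluster, led by OPALIN and OLAH, compared with 247 at 6 mpi.

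Neuron-like nuclei differed least. Of the lists tied to neuronal function, none of 23 glutamate receptor genes (median -0.04), 19 GABA and glycine receptor genes (-0.07), 31 ion channel genes (-0.04), 21 genes of presynaptic release (-0.13), 8 monoamine receptor genes (-0.23), 8 neuropeptide genes (0.02) or 14 neurotrophin genes (-0.19) passed the fold. Nor did any of 8 injury and regeneration genes (-0.01) or 17 respiratory chain genes (0.03). Since 1.34% of all counted genes in this class were higher and 0.428% lower, counts of 0 in lists of this size are near the background. SLC12A5, which keeps neuronal chloride low, was at 69.2 CPM against 90.5 in intact lumbar, 92.4 in cervical and 104 in thoracic cord, below all 3 without passing. The serotonin receptor HTR2C was at 442 CPM against 344 to 512, and the growth-associated gene GAP43 at 111 against 104 to 129.

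The exception among transmitter genes was GAD2 (ENSMMUG00000012233, chromosome 9, 27214469 to 27303983), which makes GABA. It was at 53.6 CPM against 115 in intact lumbar, 93.4 in cervical and 118 in thoracic cord, 2.14-fold lower (2.02 to 2.27), and it was the 1 of 6 counted in a list with a median of -0.49. GAD1, the other GABA-making enzyme, was at 55.1 CPM against 77.4, and the glycine transporter SLC6A5 at 51.0 against 72.4. Inhibitory nuclei were chosen here by a UMI of GAD1, GAD2, SLC32A1 or SLC6A5 and none of SLC17A6. They were 344 of 856 neuron-like nuclei at 6 mpi and 1348 of 2807 in intact lumbar cord. Nuclei with SLC17A6 and none of those genes were 306 and 949. As GAD2 is among the choosing genes and depth differs, these shares are no independent measure. A cluster led by PAX8 and GAD2 made up 11.4% of the class at 6 mpi and 13.3% in intact lumbar cord. The class pools 12 clusters, and a cluster led by HTR2C and CNTN5 made up 33.5% of it at 6 mpi and 41.1% in intact lumbar cord.

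Other genes of neuron-like nuclei came from no list. The sulfotransferase SULT1C3 was at 33.9 CPM against 2.84 to 4.34. SOD2, the mitochondrial superoxide dismutase, was at 19.9 CPM against 54.8 in intact lumbar, 57.7 in cervical and 46.3 in thoracic cord, 2.76-fold lower (2.51 to 3.04). ESR1, the estrogen receptor, was at 12.4 CPM against 29.8, 18.7 and 21.3, and BPIFC at 4.96 against 18.9 to 21.5. Both antigen presentation genes counted, B2M (15.1 CPM against 4.99 to 7.77) and MAMU-DRB1 (17.5 against 6.64 to 7.01), were higher, beside a microglia marker sum of 68.0 CPM against 47.6 to 70.8, with 10 of 10 microglia markers above intact lumbar cord and 8 above all 3 intact libraries. Their part in these values was not tested. Splicing genes had 1 of 29 (HNRNPA1, median 0.37), and none passed among 7 interferon, 13 heat shock, 7 glucocorticoid, 23 autophagy, 10 nutrient response or 5 HOX genes.

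In OPC-like nuclei none of 16 precursor genes passed the fold, with a median of -0.26, and PDGFRA, the growth factor receptor that defines the cells, was at 782 CPM against 862 to 931. Of all counted genes in this class 4.58% were higher and 1.13% lower. SYT1, a calcium sensor of vesicle release that is also a neuron marker, was at 22.9 CPM against 403 in intact lumbar, 313 in cervical and 460 in thoracic cord, 17.6-fold lower (11.6 to 28.2). After thinning 1.75% of OPC-like nuclei held a SYT1 UMI at 6 mpi (0.478 to 4.41) and 28.7% in intact lumbar cord, while the neuron-like shares were 71.4% and 76.9%. The 10 neuron markers together, SYT1 among them, summed to 536 CPM in OPC-like nuclei at 6 mpi and 895 in intact lumbar cord, but without SYT1 the other 9 summed to 513 and 492 CPM. SYNPR, a synaptic vesicle protein, was at 74.9 CPM against 1.51 to 2.49, on 72 UMIs.

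Among genes of committed precursors and new oligodendrocytes, GPR17 was lower (16.6 CPM against 30.1 to 37.3) and MYRF, the regulator of myelin genes, higher (54.1 CPM against 11.6 in lumbar, 29.9 in cervical and 27.4 in thoracic cord) of 11 counted, with a median of 0.16. MYRF and ZNF536 were the 2 of 8 higher transcription factors, with a median of 0.52. Oligodendrocyte markers stood at 1037 CPM in this class at 6 mpi against 348 in lumbar, 925 in thoracic and 1473 in cervical cord, and their part in the MYRF value was not tested. ANGPT1, a ligand for the endothelial TIE receptors, was at 63.4 CPM against 5.08 to 9.60, TFPI, an inhibitor of coagulation, at 26.0 against 122 to 132 and the ether lipid enzyme AGMO at 9.36 against 42.7 to 72.6. Interferon genes had 2 of 5 higher (IRF9 among them, median 0.90), autophagy 3 of 18 (0.33), splicing 2 of 29 (0.49), and the respiratory chain 1 of 11 higher and 1 lower (0.50). B2M, FOS and GFAP were also higher. The microglia markers summed to 92.5 CPM in OPC-like nuclei at 6 mpi against 15.6 to 81.3 in the intact libraries, 10 of 10 above lumbar cord and 6 above all 3, and their part in these values was not tested. Thinning to 1000 UMIs gave 43 higher and 25 lower genes among 2334 counted, and of the 289 higher and 71 lower genes of the full data 31 and 10 were among them.

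Astrocyte-like nuclei, 124 at 6 mpi, rest on the smallest sum. GFAP (ENSMMUG00000013115, chromosome 16, 56169389 to 56180984), the intermediate filament of astrocytes, was at 2886 CPM against 942 in intact lumbar, 1214 in cervical and 1258 in thoracic cord, 3.06-fold higher (2.92 to 3.22). TNC, a matrix glycoprotein, was at 314 CPM against 74.2, 97.1 and 85.6, 4.24-fold higher (3.62 to 4.95). These were the 2 of 6 reactive genes past the fold (median 0.17) and also the 2 of 9 of the white and gray matter list (median -0.51). The other reactive genes, CD44 among them (298 CPM against 275 to 361), did not pass, and of 19 genes of glutamate, potassium and water transport none did, with a median of -0.10. Of all counted genes in this class 6.25% were higher and 2.16% lower. AQP4 stood at 476 CPM against 456 to 514. SEMA3A, a repulsive guidance cue, was at 6.92 CPM against 51.6 to 67.8, and MASP1, a protease of the lectin pathway of complement, at 23.5 against 159 to 171.

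Markers of other cell types were also measured in this class. The 10 microglia markers summed to 180 CPM at 6 mpi against 21.1 to 66.3 in the intact libraries, all 10 above lumbar cord, and AIF1 was at 0 in lumbar cord and 1.38 CPM at 6 mpi. ITGAX, at 63.7 CPM against 0.58 to 1.06 the single higher one of 3 complement genes, had 904 CPM in microglia-like nuclei. Oligodendrocyte markers summed to 1838 CPM against 408 in lumbar, 974 in cervical and 3478 in thoracic cord, and KCNH8, at 111 CPM against 13.6 to 42.0, had 485 CPM in oligodendrocyte-like nuclei. Their part in these values was not tested. B2M and NLRC5 were the 2 of 2 higher antigen presentation genes, 1 of 5 interferon genes was higher, and 3 of 28 splicing genes were higher (median 0.34), HNRNPA1 among them. None of 3 NF-kB, 8 heat shock or 10 nutrient response genes passed the fold. The clusters also differed, with 70.2% of the class at 6 mpi in a cluster led by ITPRID1 and SLC1A2 against 47.5% in intact lumbar cord. Within that cluster alone 308 genes were higher and 143 lower, and they included 178 of the 373 higher and 64 of the 129 lower genes of the whole class. In thinned nuclei, with 1303 genes counted, 40 were higher and 46 lower, and 19 and 20 of these were past the fold in the full data.

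Some differences were common to all classes. Of 4398 genes counted in all 5, 17 were higher and 3 lower past the fold in every one. The mitochondrial genes ATP6 and COX3 led them, with mean log2 ratios of 3.04 and 2.41. HEATR3 (ENSMMUG00000020065, chromosome 20, 37154066 to 37227689), which takes part in ribosome assembly, was at 248 CPM in neuron-like, 132 in oligodendrocyte-like, 106 in microglia-like, 162 in OPC-like and 137 in astrocyte-like nuclei at 6 mpi, against 40.5 to 77.8 across the classes and intact libraries. The others included LENG8, BMT2, DPH1, the splicing kinase CLK1 and the glycolytic enzyme ALDOA. TAF1D, a subunit of an RNA polymerase I factor, was lower in all classes, with log2 ratios of -1.35 to -1.06. A further 355 genes were higher and 147 lower in 1 class only. A difference that all classes of a library share cannot be told apart from one between the animals or the library preparations.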

How the data were processed

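Nuclei had been isolated from cord without meninges and sequenced with 10x Genomics droplets. The deposited files hold raw UMI counts per gene and barcode, which the authors made with Cell Ranger 6.0.0 (per the submitters' processing notes) on Mmul_10, and which are used here as deposited. For their own analysis the authors removed doublets with DoubletFinder and filtered on genes, UMIs, mitochondrial and hemoglobin transcripts. Here barcodes with at least 1000 UMIs, over 500 genes, under 10% mitochondrial and under 5% hemoglobin UMIs were kept, and the 5% with the highest simulated-doublet score were removed per library. The 35432 identifiers gave 28966 symbols or identifiers, 959 of them named from a reference table. Nuclei of all 7 libraries were clustered (Leiden, scanpy 1.11.5, leidenalg 0.10.2, Python 3.11.15) and clusters were named from marker lists. No correction for differences between libraries was made, whereas the authors integrated their samples to correct batch effects. A marker was left out when leading genes were compared if at least 2 clusters of another class held it above every cluster of its own class. Those clusters also had to detect it in most of their nuclei. The rule, chosen after the clusters were seen, set aside the endothelial marker VWF and the astrocyte marker SLC1A3. Without the rule the microglia-like class has 1493 in place of 2313 nuclei at 6 mpi.

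UMIs were summed per class and library. Genes were counted from 10 CPM (20.8 in OPC-like, 27.7 in astrocyte-like nuclei, where 20 UMIs were expected), with a pseudocount of 1 CPM. Intervals are exact at 95% (Poisson for levels, conditional binomial for folds, Clopper-Pearson for shares; scipy 1.17.1). The text names, per class, the 8 (5 in OPC- and astrocyte-like nuclei) top-ranked higher and lower genes with at least 50 UMIs and at least 20% of the level in the highest class, and list members past the fold. List members short of the fold were picked as examples after their values were seen. The members and gene lists were chosen with earlier results of these data known. Gene positions and upstream windows came from the RefSeq annotation of Mmul_10. The procedure was also run on counts simulated from the intact lumbar levels. Those counts hold no difference between animals or library preparations, so the run says nothing on such differences. Some genes are counted in the lists but not reported here.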

Additional observations from a re-analysis of the deposited data

Results flagged for a closer look

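The genes below were past the fold in opposite directions in a pair of classes. With 1 library per side the difference between the classes was not tested, and groups of 1 library allow no search for outlying samples. Values are log2 ratios of 6 mpi over intact lumbar cord. CLVS2, a vesicle protein, was at 3.10 in oligodendrocyte-like and -1.09 in astrocyte-like nuclei. CNTN1, an axon contact protein, was at 1.02 in oligodendrocyte-like and -1.59 in microglia-like nuclei. MGLL, the monoglyceride lipase, was at 1.26 in microglia-like and -2.72 in oligodendrocyte-like nuclei. SOD2, the mitochondrial superoxide dismutase, was at -1.42 in neuron-like nuclei and at 2.09 in microglia-like ones. In microglia-like clusters of 6 mpi SOD2 had 548 CPM (ITGAX-GPNMB), 90.3 (GPNMB-CHIT1) and 15.6 (SLC11A1-CD74), against 18.6 and 9.63 in the intact clusters. TNS1, a focal adhesion protein, was at 5.05 in microglia-like and -2.36 in OPC-like nuclei.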

How the results depend on the processing

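No paired analysis was possible because each group is 1 library, and for the same reason no replicate could be left out. Of 2583 values of 220 named gene and class entries under the alternatives, 1695 moved by less than their counting interval, 882 moved further and 6 changed sign. This pooled count hides large differences between alternatives. With a pseudocount of 10 CPM 155 moved further and 65 did not, with doublets kept 110 and 108, and without the GPNMB-CHIT1 cluster 83 and 17. Without mitochondrial and ribosomal protein genes all 214 stayed within the interval. The sign changes were CR1 (-0.79) and TSC22D3 (-0.25) in microglia-like nuclei when doublets were kept (1137 nuclei at 6 mpi in place of 2313), the same genes without the GPNMB-CHIT1 cluster (-0.70 and -0.28), and IL1RAPL2 in astrocyte-like nuclei, at 0.014 when each nucleus was named alone and 1.64 in the ITPRID1-SLC1A2 cluster. Counts of genes past the fold are given as higher and lower. Without a minimum level they were 1775 and 653 in microglia-like, 944 and 328 in oligodendrocyte-like, 347 and 139 in neuron-like, 2318 and 973 in OPC-like and 2670 and 1324 in astrocyte-like nuclei, and 288 listed genes passed against 157. With the minimum raised 3 times they were 489 higher in microglia-like nuclei, 110 and 80 in oligodendrocyte-like, 41 and 14 in neuron-like, 62 and 25 in OPC-like and 69 and 44 in astrocyte-like nuclei, and 93 listed genes. A pseudocount of 10 CPM gave 593 higher in microglia-like, 116 and 87 in oligodendrocyte-like, 39 and 11 in neuron-like, 164 and 35 in OPC-like and 225 higher in astrocyte-like nuclei. Median-of-ratios scaling gave 172 higher in oligodendrocyte-like, 166 and 135 in OPC-like and 179 and 241 in astrocyte-like nuclei. Thinning each nucleus to 1000 UMIs gave 43 and 25 in OPC-like and 40 and 46 in astrocyte-like nuclei, with fewer genes counted. In neuron-like nuclei it gave 119 and 47, of which 43 and 15 were among the 125 and 40 given. Naming each nucleus alone gave 179 higher in OPC-like and 200 and 76 in astrocyte-like nuclei. Chosen after the data were seen, nuclei at or below the median share of other classes' markers gave 128 higher in OPC-like and 144 and 80 in astrocyte-like nuclei. Microglia-like nuclei had 215 lower genes when doublets were kept, which left the GPNMB-CHIT1 cluster unnamed, and 214 without that cluster, another choice made after the data were seen. They shared 458 and 438 of 936 higher and 183 and 176 of 371 lower genes with the result given. Apart from construction (fewer genes or nuclei), the cause was not tested. The class with the fewest nuclei, 124 astrocyte-like ones, limits what depth can show.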
